A study of Mus musculus with 24 samples.

Results

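Acyl-CoA synthetases join a fatty acid to coenzyme A, the step that every fatty acid must pass before it can be oxidized, built into lipid or coupled to another molecule. The 7 genes described here encode synthetases for the short and medium chains: Acsm1, Acsm2, Acsm3 and Acsm5 of the medium-chain family, and Acss1, Acss2 and Acss3 of the short-chain family. They were matched by symbol to the Ensembl identifiers of the count files, 7 of the 55335 genes listed and 7 of the 16092 tested. The genes were chosen by name with the cKO against Ctrl differences of these kidneys already known. Those differences, and whether they were past a threshold, are therefore given below as a description and not as a test. The difference between the sexes in control kidneys, which that choice does not name, is tested. It shares the Ctrlm kidneys with the male difference, and earlier results of these data were known, so its p-values are not independent of the choice.

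Whole kidneys were sequenced in 4 groups of 6. The cKO mice were Pex5lox/lox/Pax8-rtTA/LC1, in which doxycycline (DOX) switches on Cre in cells that use the Pax8 promoter, that is, in the renal tubule. The Ctrl mice were Pex5lox/lox littermates that lack the rtTA and Cre transgenes, and all groups were on the C57BL/6J background. Male (Ctrlm, cKOm) and female (Ctrlf, cKOf) mice of both genotypes received DOX for 2 weeks from 8 weeks of age, and kidneys were taken 4 weeks after its end. Vessels, interstitium and other cells without Pax8 keep an intact Pex5 in this model and are part of every sample. The labels give conflicting circadian times for the collection, and they number the kidneys of a group without saying whether each came from its own mouse, so p-values measure the spread between these kidneys.

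The kidneys had 19376152 to 28470831 reads on genes each. Pex5, which encodes the receptor that imports most peroxisomal matrix enzymes, was at 54.3 ± 4.63 CPM (reads scaled to the library total; SD, n = 6) in Ctrlm and 43.7 ± 1.94 in cKOm, without overlap, and at 50.3 ± 6.97 in Ctrlf and 43.6 ± 3.55 in cKOf, with overlap. These reads are counted over the whole gene and do not measure how completely Pex5 was deleted. In the paper, PEX5 protein was nearly gone from cKOm kidneys and reduced but detectable in cKOf kidneys. Residual full-length Pex5 mRNA was also found in cKOf, from which the paper proposes incomplete excision. Markers of proximal tubule (14 genes), of thick limb, distal tubule and collecting duct (13) and of endothelium (7) were all detected, which fits the label of whole kidney. Transcripts of hepatocytes stood out in 5 kidneys. Their 20 markers summed to 660 to 1126 CPM in Ctrlm kidneys 1 to 4 and to 684 CPM in cKOm kidney 4, against 68.4 to 240 CPM in the other kidneys. Adipocyte markers summed to 441 CPM in Ctrlf kidney 6 and to at most 205 CPM elsewhere. Results that depend on the 5 kidneys highest in hepatocyte transcripts are also given without them, which leaves 2 Ctrlm and 5 cKOm kidneys. The kidneys left out are all male, so female values without them change only through the filter, scaling, spread and adjustment shared with males.

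The medium-chain enzymes work in the mitochondrial matrix. They activate fatty acids from butyrate to medium chains for β-oxidation, and benzoate and similar acids for coupling to glycine, a route by which kidney and liver clear aromatic acids into the urine. Acsm3, also known as the SA gene, was first described in hypertensive rats. Of the short-chain enzymes, Acss2 makes acetyl-CoA from acetate in cytosol and nucleus and belongs to the genes driven by the sterol-regulated SREBP factors, Acss1 makes it in mitochondria, and Acss3 is a mitochondrial enzyme with a preference for propionate. Peroxisomes shorten very long and branched fatty acids and release acetyl-CoA, propionyl-CoA and medium-chain products, some of the acyl groups that these synthetases also form.

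The Acsm genes lie in 1 cluster of 268 kb on the plus strand of chromosome 7 (GRCm38). In order they are Acsm5 (chr7:119519463-119545551), Acsm2 (chr7:119554340-119600690), Acsm1 (chr7:119607026-119662515), Acsm4 (chr7:119690026-119714565) and Acsm3 (chr7:119760923-119787513). Acss1 (chr2:150618105-150668500, minus strand) and Acss2 (chr2:155517948-155585724, plus strand) share chromosome 2, and Acss3 (chr10:106933517-107123668, minus strand) is on chromosome 10. Acsm4, the gene of the family that was not among those described, had 0 counts in all 24 kidneys, although it sits between Acsm1 and Acsm3. A count of 0 allows a level of up to 0.155 CPM (3 counts) in the kidney with the highest floor, counting error only.

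Promoter windows of 300 bases (250 before to 50 after the RefSeq start, GRCm38.p6) were found for 6 of the 7 genes. The 4 below are shown because 3 of them belong to cluster neighbours with very different behaviour between the sexes and genotypes, and Acss2 because of its link to sterol-regulated genes. The Acsm3 window (chr7:119760673-119760972) held no match to any motif searched. Acsm2 had another window (chr7:119561458-119561757), not printed, that also held no match. Capitals mark TATAAA and TGTTCT in the Acsm2 window (chr7:119554090-119554389), TGACCT and TTCCCAGAA in the Acsm1 window (chr7:119617562-119617861, a RefSeq start inside the GENCODE gene) and the GC boxes in the Acss2 window (chr2:155517793-155518092). All 4 are printed 5′ to 3′ on the plus strand.
Acsm3: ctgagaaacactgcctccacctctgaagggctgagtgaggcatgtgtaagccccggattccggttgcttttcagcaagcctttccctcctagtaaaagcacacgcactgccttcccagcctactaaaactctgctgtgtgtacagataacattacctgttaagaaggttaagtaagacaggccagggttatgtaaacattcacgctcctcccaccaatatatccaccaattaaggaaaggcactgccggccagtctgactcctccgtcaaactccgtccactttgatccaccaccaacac
Acsm2: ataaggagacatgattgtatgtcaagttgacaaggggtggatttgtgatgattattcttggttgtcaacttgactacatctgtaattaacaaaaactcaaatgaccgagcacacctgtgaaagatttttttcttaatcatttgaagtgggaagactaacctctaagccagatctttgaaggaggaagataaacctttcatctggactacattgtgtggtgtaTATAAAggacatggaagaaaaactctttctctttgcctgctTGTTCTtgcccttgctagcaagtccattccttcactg
Acsm1: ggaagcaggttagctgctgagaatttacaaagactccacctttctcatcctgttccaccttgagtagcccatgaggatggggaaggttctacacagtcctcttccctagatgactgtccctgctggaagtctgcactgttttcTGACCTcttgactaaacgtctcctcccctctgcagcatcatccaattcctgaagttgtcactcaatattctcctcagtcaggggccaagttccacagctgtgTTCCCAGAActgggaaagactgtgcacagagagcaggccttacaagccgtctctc
Acss2: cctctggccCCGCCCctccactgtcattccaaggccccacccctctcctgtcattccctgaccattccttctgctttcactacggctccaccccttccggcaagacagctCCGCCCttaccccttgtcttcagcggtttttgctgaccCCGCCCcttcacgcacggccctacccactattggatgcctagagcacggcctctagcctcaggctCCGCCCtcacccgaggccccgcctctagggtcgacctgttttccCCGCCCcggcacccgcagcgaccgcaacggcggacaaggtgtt

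The motifs were searched on both strands, and a match is a string of letters and not a demonstration of binding. AGAACA, the hexamer of androgen and glucocorticoid receptor sites, occurred in 1 of the windows of these genes, as TGTTCT at position 13 of Acsm2, and in 19% of all 32851 windows. AGGTCA, the hexamer of PPAR, RXR and HNF4 sites, occurred at position -107 of Acsm1 and in 16.3% of all windows. TTCNNNGAA, the form bound by STAT factors, occurred at position -5 of Acsm1 and in 8.3% of all windows. TATAAA occurred at position -28 of Acsm2 (13.6% of all windows) and CACGTG at position -132 of Acsm5 (7.15%). The GC box GGGCGG (35.7%) was present 5 times in Acss2 and 2 times in Acss1. No window held the sterol element TCACCCCAC (0.551%), a pair of AGAACA and TGTTCT separated by 3 bases (0.00913%) or a direct repeat of AGGTCA with 1 base between (0.0396%). The Acss2 and Acss1 windows were rich in G and C (65% and 64.3%, with 20 and 23 CpG), while the Acsm windows ranged from 38.3% to 51.3%, against a median of 52.7% for all windows.

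Levels of different genes were compared per length, as CPM per kb of annotated exons. In Ctrlm kidneys Acsm2 was the most abundant of the 7 transcripts at 904 ± 139 CPM per kb (SD, n = 6), followed by Acsm3 at 170.2 ± 48.3, Acsm1 at 101.2 ± 11.5 and Acss1 at 78.0 ± 14.9. Acsm5 (45.3 ± 5.48), Acss2 (28.6 ± 2.09) and Acss3 (2.38 ± 0.491) were lower. In Ctrlf kidneys Acsm2 was again first at 229 ± 30.0 CPM per kb, followed by Acsm1 at 154 ± 15.9 and Acss1 at 126 ± 8.28, whereas Acsm3 was last at 0.746 ± 0.422. Divided by the longest transcript instead, Acss2 was at 80.6 CPM per kb in Ctrlm, above Acsm5 at 57.8, so the order of these genes depends on the gene model.

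The 7 transcripts together summed to 1330 ± 164 CPM per kb in Ctrlm and 838 ± 52.3 in cKOm. The female sums were 564 ± 40.1 for Ctrlf and 543 ± 46.4 for cKOf. Acsm2 took 67.8 ± 3.41% of that sum in Ctrlm and 58.0 ± 5.69% in cKOm, and 40.6 ± 3.08% and 42.8 ± 3.87% in Ctrlf and cKOf. Acsm3 took 12.7 ± 2.57% in Ctrlm, 1.28 ± 0.561% in cKOm and less than either in the female groups (0.134 ± 0.0790% and 0.191 ± 0.0911%). Acsm1 took 7.69 ± 1.10% in Ctrlm and 22.2 ± 6.13% in cKOm, and 27.3 ± 2.25% and 27.5 ± 3.27% in Ctrlf and cKOf. Acss1 was also lowest in Ctrlm, going from 6.01 ± 1.66% in Ctrlm and 11.4 ± 0.780% in cKOm to 22.4 ± 1.61% in Ctrlf and 20.8 ± 1.398% in cKOf.

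**Figure D1:**
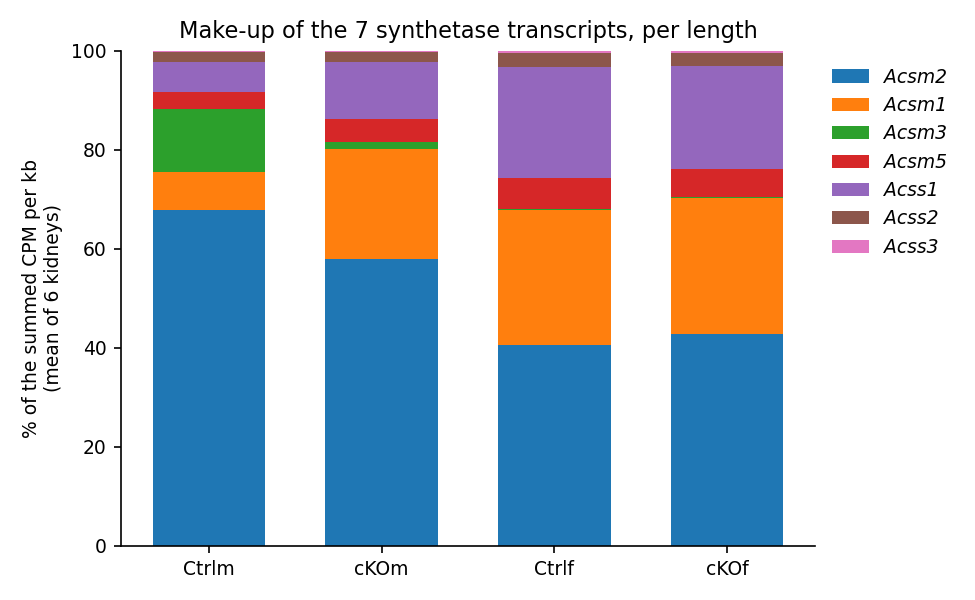
Stacked bars of the share (%) of each transcript in the summed CPM per kb of the 7 genes, as the mean of 6 kidneys for each group on the horizontal axis. Acsm2 is the largest part in all 4 groups, and Acsm3 is a visible part in Ctrlm (12.7%) and nearly gone from the female bars.

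Control kidneys of the sexes were compared first. Of the 7 genes, 6 differed between Ctrlm and Ctrlf (edgeR quasi-likelihood test, adjusted p under 0.05), 4 higher in Ctrlm and 2 higher in Ctrlf, and 5 did not overlap. Of all genes tested, 16.8% passed this threshold, 8.71% higher in Ctrlm and 8.11% higher in Ctrlf, and 7.35% did not overlap. Acsm2, Acsm3, Acsm5 and Acss2 were the genes higher in males, and Acsm1 and Acss1 those higher in females.

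Acsm3 differed most. It ranged from 488 to 1153 CPM in Ctrlm with a median of 874, and from 0.953 to 6.27 CPM in Ctrlf with a median of 3.13, the latter resting on 20 to 142 reads a kidney. The lowest male kidney was far above the highest female one. The log2 difference was 7.83 ± 0.41 (SE, n = 6 and 6), a 228-fold higher level in males (edgeR adjusted p = 3.87e-14, exact permutation p = 0.00216, two-sided, the smallest that the arrangements of 6 and 6 kidneys can give).

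Acsm2 was the next. Its CPM ran from 5223 to 8236 in Ctrlm (median 6726) and from 1391 to 2084 in Ctrlf (median 1690), again without overlap. The log2 difference was 1.98 ± 0.11, or 3.94-fold (edgeR adjusted p = 3.83e-13, exact permutation p = 0.00216). Acsm5, the third medium-chain gene higher in males, had overlapping groups, at 145 to 197 CPM in Ctrlm (median 180.0) and 122 to 151 CPM in Ctrlf (median 129.8). Its log2 difference of 0.37 ± 0.11 passed the threshold narrowly (edgeR adjusted p = 0.0245, exact permutation p = 0.0108). Without the 5 kidneys highest in hepatocyte transcripts, which leaves 2 Ctrlm kidneys, it was 0.33 ± 0.14 and no longer passed (edgeR adjusted p = 0.175). It also did not pass without Ctrlm kidney 3 (edgeR adjusted p = 0.0661), Ctrlf kidney 2 (0.0537) or Ctrlf kidney 6 (0.0572).

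Acsm1 went the other way. Ctrlm kidneys lay between 198 and 268 CPM (median 211) and Ctrlf kidneys between 302 and 400.2 CPM (median 329.8), without overlap. The log2 difference was -0.61 ± 0.14, 1.52-fold higher in females (edgeR adjusted p = 0.00270, exact permutation p = 0.00216). Acsm1 therefore had the opposite sex difference to Acsm2, whose end lies just ahead of its start in the cluster.

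Of the short-chain genes, Acss2 was at 266 to 330 CPM in Ctrlm (median 286) and at 144 to 175 CPM in Ctrlf (median 162). No female kidney reached the male range, and the log2 difference was 0.85 ± 0.06, or 1.803-fold (edgeR adjusted p = 8.81e-11, exact permutation p = 0.00216). Acss1 showed the reverse, with 265 to 434 CPM in Ctrlm (median 304) and 484 to 567.8 CPM in Ctrlf (median 518). It was 1.62-fold higher in females without overlap, a log2 difference of -0.69 ± 0.09 (edgeR adjusted p = 1.77e-06, exact permutation p = 0.00216). The acetate enzymes of mitochondria and of the cytosol thus differed between the sexes in opposite directions.

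Acss3 was the only one of the 7 that did not pass in this comparison. It ranged from 13.5 to 22.6 CPM in Ctrlm (median 16.1) and from 15.3 to 30.6 CPM in Ctrlf (median 20.3). The groups overlapped, and the log2 difference was -0.31 ± 0.14 (edgeR adjusted p = 0.153, exact permutation p = 0.123).

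**Figure D2:**
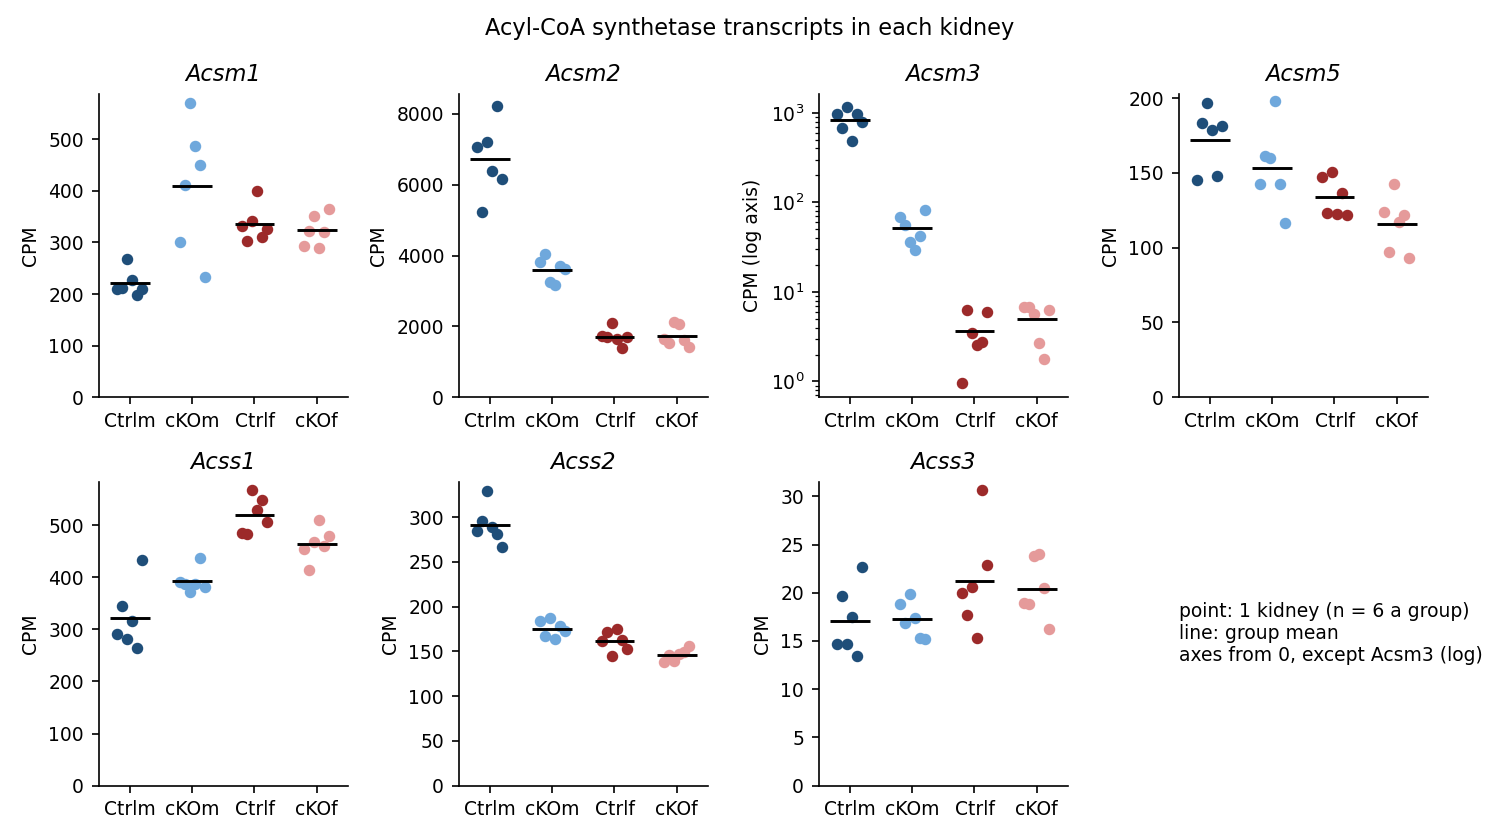
CPM of each gene in each kidney, by group, with 1 point per kidney (n = 6 a group) and a line at the group mean, on axes that start at 0 except for Acsm3, which has a log axis. Acsm3 falls into 3 levels (Ctrlm at 488 to 1153, cKOm at 29.2 to 81.4, both female groups under 7), and the cKOm points of Acsm1 are the most widely spread of that gene.

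Kidneys of cKOm and Ctrlm were compared next. Of the 7 genes, 4 were past the threshold (adjusted over the male and female tests of all genes), 1 higher and 3 lower in cKOm, where 9.05% of all genes tested were past it, 4.14% higher and 4.9% lower. The groups of 3 genes did not overlap, against 7.38% of all genes. These counts describe genes that were chosen with this comparison known, and nothing is read from them. The same 4 genes were past the threshold without the 5 kidneys highest in hepatocyte transcripts.

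Acsm3 had the widest gap. Against 488 to 1153 CPM in Ctrlm, it was at 29.2, 35.9, 42.6, 55.6, 68.2 and 81.4 CPM in the 6 cKOm kidneys. Every cKOm kidney was below every Ctrlm kidney and above every female kidney. The mean went from 840.1 ± 239 to 52.2 ± 20.01 CPM (SD, n = 6), a log2 difference of -4.01 ± 0.33 (SE), or 16.1-fold lower.

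Acsm2, the most abundant of the medium-chain transcripts, was at 3157 to 4037 CPM in cKOm (median 3671), below the 5223 to 8236 CPM of Ctrlm. The log2 difference was -0.90 ± 0.11, 1.86-fold lower. Acsm5, its neighbour upstream in the cluster, was at 116 to 198 CPM in cKOm (median 151), a range that enclosed that of Ctrlm, with a log2 difference of -0.17 ± 0.11 that was not past the threshold.

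Acsm1, its neighbour downstream, was higher. Its 6 cKOm kidneys were at 234, 302, 412, 449.9, 488 and 570.2 CPM, against 198 to 268 CPM in Ctrlm. In 5 of the 6 the level was above the highest Ctrlm kidney, and the lowest was inside the Ctrlm range. The mean was 409 ± 123 CPM against 221 ± 25.01 (SD, n = 6), a log2 difference of 0.89 ± 0.14, or 1.85-fold. The coefficient of variation was 30.2% in cKOm and 9.29% to 11.3% in the other groups. The cKOm kidney lowest in Acsm1, kidney 6, was the highest in Acsm3 (81.4 CPM).

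Acss2 was at 164 to 187 CPM in cKOm (median 175) and 266 to 330 CPM in Ctrlm, without overlap. The log2 difference was -0.73 ± 0.06, 1.66-fold lower, and the spread within cKOm was small (SD 9.25 CPM). Acss1 was at 371 to 438 CPM in cKOm (median 387), and 1 Ctrlm kidney, kidney 6 at 434 CPM, lay in that range while the other Ctrlm kidneys were at 265 to 344 CPM. Its log2 difference of 0.29 ± 0.09 was not past the threshold, but it was past it without Ctrlm kidney 6 (0.36), with limma-voom and with DESeq2. With a hepatocyte marker score as a covariate it was 0.20 ± 0.10. Without the 5 kidneys highest in hepatocyte transcripts it was 0.14 ± 0.13, and it was past the threshold under neither. Acss3 was at 15.2 to 19.8 CPM in cKOm (median 17.1), inside the Ctrlm range, with a log2 difference of 0.01 ± 0.14.

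**Figure D3:**
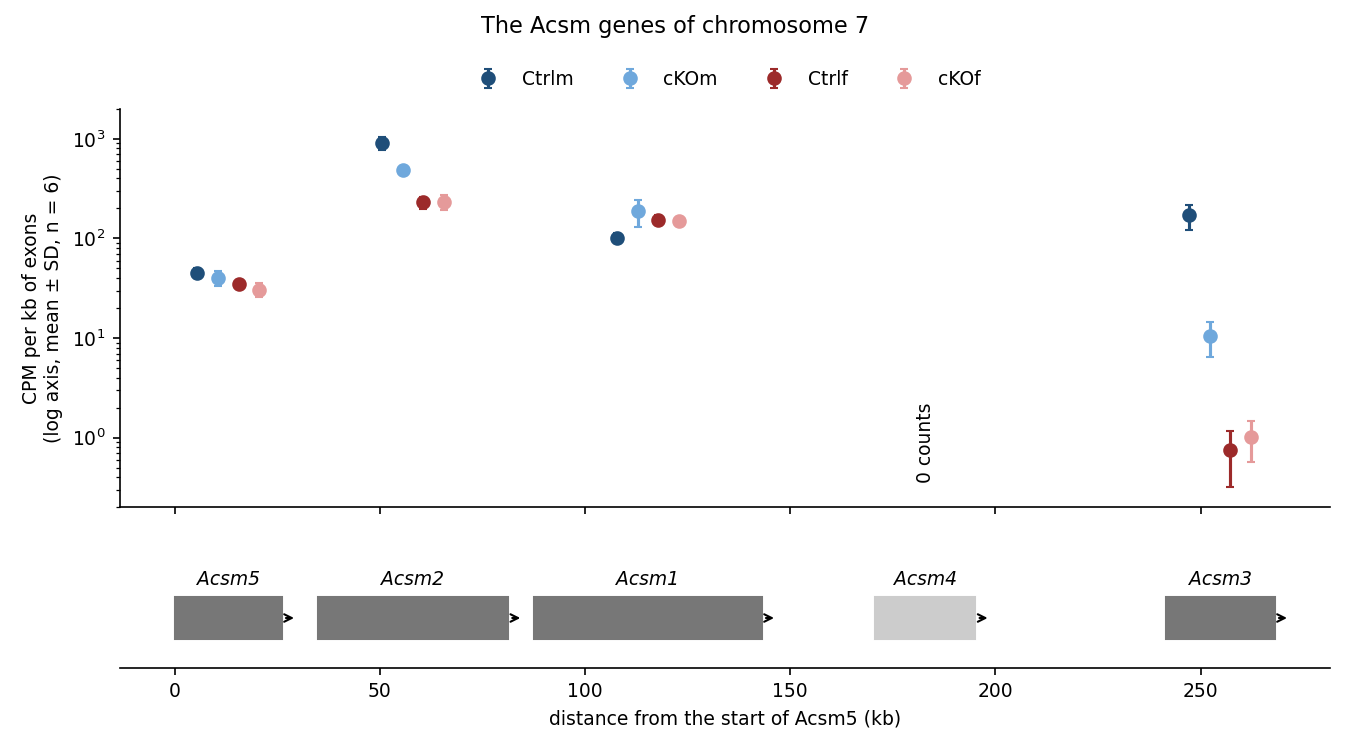
Map of the Acsm genes on chromosome 7 by distance from the start of Acsm5 in kb (boxes are genes, arrows their direction, and Acsm4 is paler), with the mean CPM per kb of exons ± SD (n = 6, log axis) of each group above each gene. Neighbours differ in the order of the groups: Ctrlm is the highest group at Acsm5, Acsm2 and Acsm3 and the lowest at Acsm1.

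In females no member was past the threshold in cKOf against Ctrlf by edgeR, limma-voom or DESeq2. In this comparison 0.851% of all genes tested were past it by edgeR, 0.391% higher and 0.46% lower in cKOf. At an unadjusted p under 0.05 there was 1 of the 7, Acss2, against 6.73% of all genes. Nothing is read from these counts, since the genes were chosen with this comparison known. All 7 had overlapping groups, where 0.559% of all genes did not overlap.

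Acsm3 was at 1.796 to 6.87 CPM in cKOf (median 5.99), close to Ctrlf, and its log2 difference of 0.44 ± 0.36 had the largest error of the 7. Acsm2 was at 1421 to 2121 CPM (median 1625) and Acsm1 at 290.0 to 364 CPM (median 321), with log2 differences of 0.03 ± 0.11 and -0.05 ± 0.14. Acsm5, at 92.8 to 143 CPM (median 119), had a log2 difference of -0.20 ± 0.11. The values of Acsm1, Acsm2 and Acsm3 were smaller in size than in males, and that of Acsm5 was similar to its male value.

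Among the short-chain genes, Acss2 was at 138 to 156 CPM in cKOf (median 146), with a log2 difference of -0.15 ± 0.06. Acss1 was at 413 to 509.9 CPM (median 464), with -0.16 ± 0.09, the opposite sign to its male value. Acss3 was at 16.3 to 23.99 CPM (median 19.7), with -0.06 ± 0.14.

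**Figure D4:**
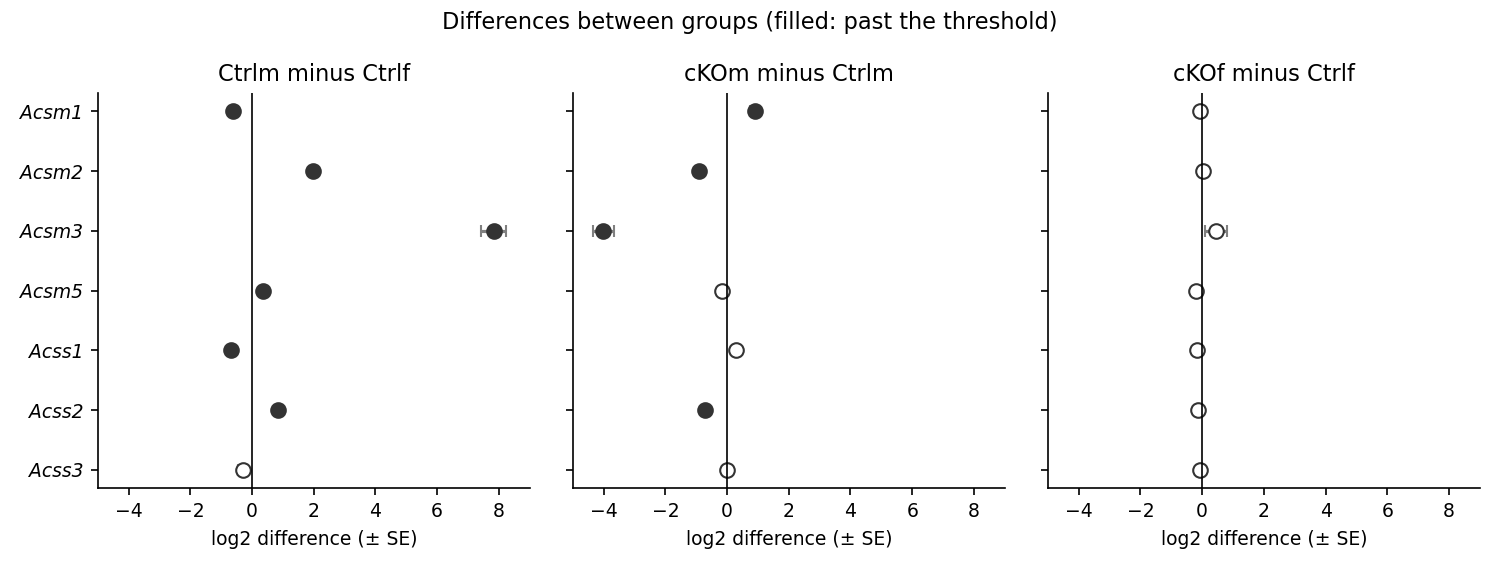
Log2 difference ± SE of the 7 genes in 3 comparisons, with filled points where the gene was past the threshold. Acsm3 stands at 7.83 for Ctrlm minus Ctrlf and at -4.01 for cKOm minus Ctrlm, while all 7 points of cKOf minus Ctrlf are open and lie between -0.20 and 0.44.

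The male change minus the female change was -4.45 ± 0.49 (log2, SE) for Acsm3, -0.92 ± 0.16 for Acsm2 and -0.58 ± 0.09 for Acss2. It was 0.94 ± 0.20 for Acsm1 and 0.45 ± 0.13 for Acss1, and 0.04 ± 0.16 and 0.07 ± 0.20 for Acsm5 and Acss3. These differences were not tested, since the genes were chosen with the male and female values known. The paper reports residual Pex5 in cKOf kidneys. A different response of the sexes and a less complete deletion in females therefore cannot be told apart here.

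The sex comparison of controls and the male genotype comparison share the Ctrlm kidneys, so their values can be set side by side but are not independent. Acsm3 was 7.83 higher on the log2 scale in Ctrlm than in Ctrlf and 3.38 ± 0.34 higher in cKOm than in cKOf, or 10.4-fold, and the latter groups did not overlap. For Acsm2 the gap was 1.98 between control sexes and 1.06 ± 0.11 between cKO sexes, and for Acss2 0.85 and 0.27 ± 0.06, both without overlap in each pair. Acss1 had gaps of -0.69 and -0.24 ± 0.09, and its cKO groups overlapped. Acsm1 had a gap of -0.61 between control sexes and 0.34 ± 0.14 between cKO sexes, where the groups overlapped. Acsm5 had 0.37 and 0.40 ± 0.11, and Acss3 -0.31 and -0.24 ± 0.14.

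Over the 4 groups, the order of mean levels was Ctrlm, cKOm, cKOf, Ctrlf for Acsm2 and Acsm3, with all neighbours apart except cKOf and Ctrlf. For Acss2 it was Ctrlm, cKOm, Ctrlf, cKOf, and Ctrlm alone was separate from its neighbour. For Acsm1 it was cKOm, Ctrlf, cKOf, Ctrlm, where only cKOf and Ctrlm, neighbours in this order, were apart. Acss1 (Ctrlf, cKOf, cKOm, Ctrlm), Acsm5 (Ctrlm, cKOm, Ctrlf, cKOf) and Acss3 (Ctrlf, cKOf, cKOm, Ctrlm) had no neighbours whose ranges were apart.

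A list of transcripts known for sex differences in mouse kidney, written with results of these data known (14 tested), was read beside these genes. In Ctrlm against Ctrlf, 9 were higher and 4 lower (8.71% and 8.11% of all genes), with a median log2 difference of 3.20 against -0.03 over all genes. In cKOm against Ctrlm, 4 were higher and 8 lower (4.14% and 4.9% of all genes), with a median of -1.18 against 0.01 over all genes. Without the 5 kidneys highest in hepatocyte transcripts the counts were 4 and 6. In cKOf against Ctrlf 1 was higher and none lower (0.391% and 0.46% of all genes), with a median of -0.11 against 0.00190. Without those kidneys the female counts were 2 and none.

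Proximal tubule markers moved with the male comparison. Of 14 markers, 7 were lower and none higher in cKOm, and their summed level was 14819 to 16953 CPM in cKOm against 18025 to 21664 CPM in Ctrlm. The count of lower markers was 4 without the 5 kidneys. With all kidneys, 4.9% of all genes tested were lower in cKOm. No marker of the list was at 0. In whole kidney, fewer cells of a type and less RNA per cell cannot be told apart, and the part of this change in the values of Acsm2 and Acsm3, genes of the proximal tubule, was not tested. In females none of the 14 passed, and the sums were 16903 to 18421 CPM in Ctrlf and 16294 to 19018 CPM in cKOf. Of the 13 markers of thick limb, distal tubule and collecting duct, 2 were higher and 1 lower in cKOm, with sums of 6292 to 7108 CPM against 4707 to 6637 CPM in Ctrlm, and 1 was lower in cKOf. Without the 5 kidneys none was higher and 1 lower in cKOm.

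Hepatocytes also make several of these synthetases. Of 20 hepatocyte markers, 17 were higher in Ctrlm than in Ctrlf, and 4 were lower and 1 higher in cKOm than in Ctrlm, with none past the threshold in cKOf against Ctrlf. These counts were 3, none and none without the 5 kidneys. With all kidneys, 8.71% of all genes tested were higher in Ctrlm than in Ctrlf, and 4.9% were lower and 4.14% higher in cKOm than in Ctrlm. Ctrlm kidneys 5 and 6, with marker sums of 240 and 154 CPM, had 962 and 786 CPM of Acsm3 and 8236 and 6161 CPM of Acsm2, inside the range of the other Ctrlm kidneys or above it. Without the 5 kidneys highest in these transcripts the log2 difference of Acsm3 was 7.92 ± 0.43 between Ctrlm and Ctrlf and -3.98 ± 0.40 between cKOm and Ctrlm. That of Acsm2 was 2.11 ± 0.14 and -1.003 ± 0.15, that of Acsm1 -0.69 ± 0.21 and 0.91 ± 0.22, and that of Acss2 0.79 ± 0.09 and -0.66 ± 0.09. That of Acss1 was -0.55 ± 0.13 and 0.14 ± 0.13. Of adipocyte (9 tested) and endothelial (7) markers none passed in either genotype comparison, and of immune markers (7 tested) 1 was lower in cKOm, none without the 5 kidneys, and none passed in females.

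The 6 lists of genes around the synthetases held 90 tested genes, of which 22 were higher and 13 lower in cKOm and 8 higher and 2 lower in cKOf. Over all genes tested, 4.14% were higher and 4.9% lower in cKOm, and 0.391% higher and 0.46% lower in cKOf. These shares also stand beside the counts of each list below. Without the 5 kidneys highest in hepatocyte transcripts, which leaves 2 Ctrlm and 5 cKOm kidneys, the male count of 35 was 16. With the hepatocyte score as a covariate, which keeps all 24 kidneys, it was 29. The male count over all genes also fell, from 1456 to 599 without those kidneys and to 888 with the covariate. How much of the fall comes from fewer kidneys was not tested.

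Among the other acyl-CoA synthetases, 5 of 14 rose and 2 fell in cKOm (median log2 difference 0.08, against 0.01 over all genes), and 5 and 1 without the 5 kidneys. Acsl1, the main synthetase of long-chain fatty acids, rose from 250 ± 74.1 to 605 ± 63.8 CPM (log2 1.27 ± 0.13, edgeR adjusted p = 2.15e-07). Acsl3, a long-chain synthetase of endoplasmic reticulum and lipid droplets, rose by 1.00 ± 0.13 on the log2 scale (adjusted p = 8.06e-06). Aacs, which activates acetoacetate in the cytosol, fell by 0.70 (adjusted p = 0.0120, and 0.210 without the 5 kidneys), and Slc27a2, a very-long-chain synthetase that is also a proximal tubule marker, fell by 0.50 (adjusted p = 0.000144). In cKOf 1 of 14 rose and none fell (median 0.11). The 1 was Acsl3, by 0.71 ± 0.13 (adjusted p = 0.000689).

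Of 17 genes listed for medium- and short-chain fatty acid oxidation, carnitine steps included, 6 rose and 3 fell in cKOm (median 0.13). Without the 5 kidneys it was 1 and 2. Acaa2, the thiolase of mitochondrial β-oxidation, rose by 0.82 ± 0.12 (adjusted p = 3.54e-05, and 0.0606 without the 5 kidneys), and Slc25a20, the carnitine-acylcarnitine carrier, by 0.80 ± 0.11 (adjusted p = 3.12e-05). Crot, which loads medium-chain acyl groups from peroxisomes onto carnitine, fell from 373 ± 42.1 to 177 ± 10.7 CPM (log2 -1.07 ± 0.09, adjusted p = 1.74e-08). Acadm, the medium-chain acyl-CoA dehydrogenase, fell by 0.52 (adjusted p = 0.0153), or by 0.84 without the 5 kidneys (0.00148). In cKOf 4 rose and none fell (median 0.07), or 3 and none without the 5 kidneys, Acaa2 by 0.57 ± 0.12 (adjusted p = 0.00244) and Slc25a20 by 0.46 ± 0.11 (adjusted p = 0.0124).

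Of 6 genes that couple acyl-CoA of several kinds to amino acids, 1 rose and 1 fell in cKOm (median -0.08), and neither passed without the 5 kidneys. Acnat1, an acyl-CoA amino acid N-acyltransferase of peroxisomes, rose by 1.10 ± 0.19 (adjusted p = 0.000377), and Gm4952, a glycine N-acyltransferase-like gene at low level, fell by 1.01 (adjusted p = 0.0170). In cKOf none rose and 1 fell (median 0.09), Baat, the bile acid conjugating enzyme, from 9.83 ± 6.88 to 3.44 ± 1.07 CPM (log2 -1.51 ± 0.31, adjusted p = 0.00294).

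Of 21 genes that handle acetate and acetyl-CoA, 2 rose and 3 fell in cKOm (median 0.10), and none and 2 without the 5 kidneys. Crat, carnitine acetyltransferase, rose by 0.35 ± 0.08 (adjusted p = 0.00375, and 0.136 without the 5 kidneys). Acat1, the mitochondrial acetoacetyl-CoA thiolase, fell by 0.89 (adjusted p = 2.11e-07), and Slc5a8, a sodium-coupled transporter of short-chain fatty acids and lactate, fell by 0.69 (adjusted p = 0.000620). In cKOf 1 rose and none fell (median 0.01), Crat by 0.26 ± 0.08 (adjusted p = 0.0458). Without the 5 kidneys, all of them male, the female log2 difference of Crat was 0.25 (edgeR adjusted p = 0.0919).

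Of 13 genes of propionate breakdown and its branched-chain amino acid sources, 1 rose and 3 fell in cKOm (median -0.17), and 1 and none without the 5 kidneys. Mmab, which makes the cobalamin cofactor of methylmalonyl-CoA mutase, rose by 0.64 ± 0.09 (adjusted p = 1.75e-05). Bckdha, of the branched-chain keto acid dehydrogenase, fell by 0.51 (adjusted p = 0.000742, and 0.0540 without the 5 kidneys), and Aldh6a1, of valine breakdown, by 0.28 (adjusted p = 0.0317, and 0.707 without them). In cKOf none of the 13 passed (median 0.05).

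Of 22 SREBP-regulated genes of lipid synthesis, the set to which Acss2 is often counted, 8 rose and 1 fell in cKOm (median 0.32), and 3 and 1 without the 5 kidneys. Elovl6, a fatty acid elongase, rose by 1.56 ± 0.18 (adjusted p = 1.12e-06). Me1, the cytosolic malic enzyme, was the 1 that fell, with a log2 difference of -0.73 ± 0.08 (adjusted p = 8.63e-07). That of Acss2 was -0.73 ± 0.06, opposite in sign to the 8 genes that rose. In cKOf 3 rose and 1 fell (median 0.04), or 2 and none without the 5 kidneys, and Insig1, which retains SREBP in the endoplasmic reticulum, rose by 0.81 ± 0.18 (adjusted p = 0.00535).

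**Figure D5:**
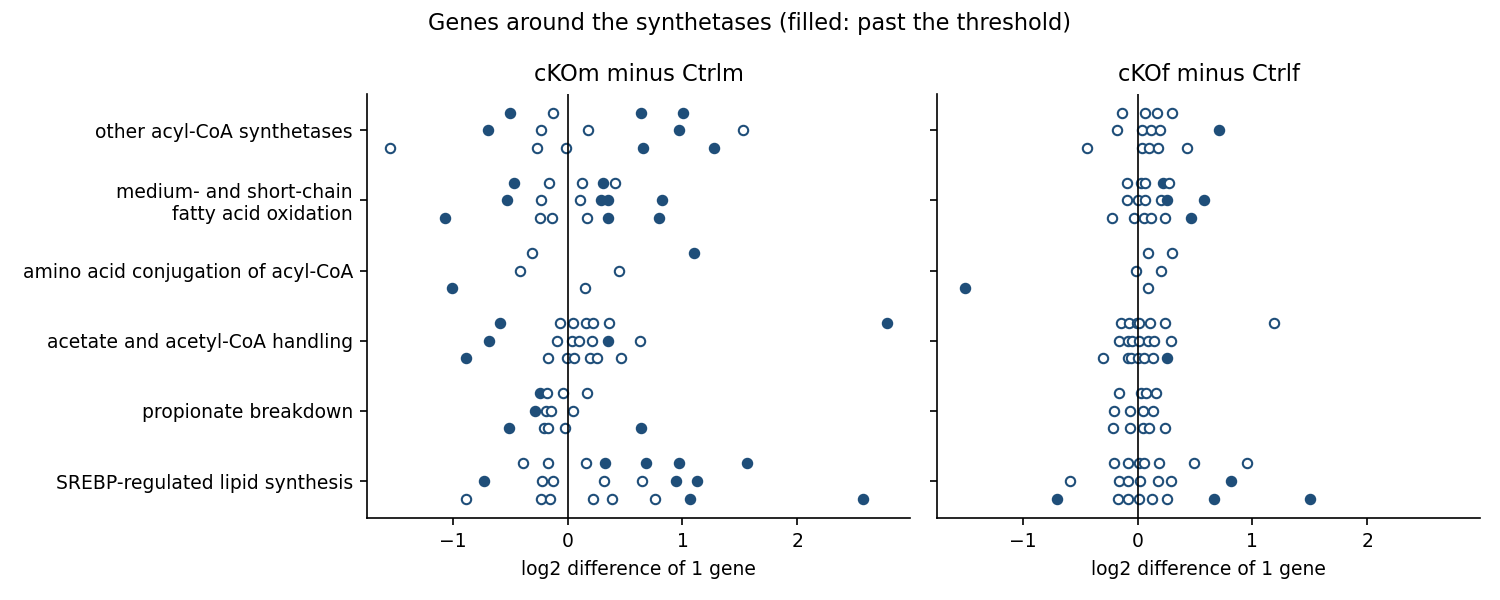
Log2 differences of the single genes of the 6 lists in males and females, 1 point per gene, filled where the gene was past the threshold. In males 22 of the 90 genes are filled to the right of 0 and 13 to the left, and in females 8 and 2.

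Within groups the synthetases did not vary as 1 block. After subtraction of each group mean, log2 CPM of pairs of them over the 24 kidneys had Pearson r from -0.45 (Acsm3 and Acsm5) to 0.53 (Acss1 and Acss3). The kidneys share the depth and composition of their libraries across genes, so these values are descriptions. Among 14072 genes with a mean of at least 1 CPM, the most like Acsm2 were Nxt2 (r = 0.85) and Anks4b (0.84), and the most like Acsm1 were Taf9b (0.81) and Aadat (0.76), the latter an enzyme of lysine and tryptophan breakdown. Acsm3 had Wnk2 (0.71) and Ugt1a7c (0.67), and Acsm5 had Sc5d, of sterol synthesis, and Ccdc62 (both 0.77). Acss1 had Kynu, of tryptophan breakdown (0.83), and Clec2h (0.80), Acss2 had Ano10 (0.84) and Tagln2 (0.81), and Acss3 had Tgoln1 and Tmem136 (both 0.84).

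Reads of some of these genes may be shared with an overlapping gene. Of the 50-base windows of Acsm3 exons, 34% also occur in transcripts of Eri2, a gene on the opposite strand that overlaps it, and 33.4% of those of Acss3 occur in Ppfia2. The share was 6.13% for Acss2, with Gss, Acss2os and Ggt7, and at most 1.58% for the other members. Eri2, looked up after the values were seen, was at 12.1 to 16.2 CPM in Ctrlm and 8.80 to 12.7 CPM in cKOm. Ctrlf kidneys had 3.88 to 9.14 CPM and cKOf kidneys 5.91 to 11.5 CPM. These levels are small beside Acsm3 in Ctrlm and similar to Acsm3 in females. The library kit marks strand, but the strand setting of the counting is not given in the sources used here. How far the overlap affects the level of Acsm3 in females, in either direction, is therefore not known. Ppfia2 was below 1 CPM in every kidney.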

How the data were processed

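RNA of 24 whole kidneys was sequenced from TruSeq Stranded mRNA libraries. The authors deposited 1 file per kidney with whole-number read counts per Ensembl gene, without normalization. Per the labels, reads were processed with cutadapt 1.8, STAR 2.5.3a and HTSeq 0.9.1 on GRCm38. Reads placed at several sites (26.9% to 34.8%) or on no gene (4.45% to 6.66%) are listed in closing lines of each file and were set aside, so sequence shared between genes lowers their counts. The strand setting is not given in the sources used here.

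Groups were taken from the labels. Symbols, positions and exon lengths were taken from the GENCODE M21 annotation, which named 55154 of the 55335 genes. The tests used edgeR 4.0.16 in R 4.3.3. Genes entered if any kidney reached 1 CPM (reads scaled to the library total, by TMM), and 1 quasi-likelihood model held the 4 groups. Benjamini-Hochberg adjustment pooled the genotype tests of both sexes and was separate for Ctrlm against Ctrlf, and 0.05 was the threshold. For log2 CPM the prior count was 2. Single genes were compared between control sexes by two-sided exact permutation of log2 CPM over all arrangements of 6 and 6 kidneys. DESeq2 1.42.0 and limma-voom (limma 3.58.1) were alternatives. The procedure was also run on simulated counts in which a set of genes was changed in cKOm only. The simulation held no sex difference and no kidneys high in hepatocyte transcripts, so it does not bear on these. Kidneys of a group differed by more than sampling noise (chi-square per degree of freedom 9.68 to 96.7 over 60 pairs). Python 3.11.15 with matplotlib 3.10.9, numpy 2.4.6 and pandas 2.3.3 did the remaining steps.

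The genes described, the gene lists, the motifs and the tests were chosen with earlier results of these data known. Of each list around the synthetases the text names the 2 genes that rose most and the 2 that fell most among those past the threshold in each sex, where there were that many, and for each synthetase the 2 genes most like it. A few of these genes are counted but not reported here. The text also names Pex5 and Acsm4. Eri2, Gss, Acss2os, Ggt7 and Ppfia2 were named after their values or overlaps were seen. Leaving out the 5 kidneys highest in hepatocyte transcripts was an alternative chosen after seeing the data.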

Additional observations from a re-analysis of the deposited data

Results flagged for a closer look

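Among the 28 combinations of a synthetase and a group that were checked for a sample far from the others, 1 stood out: Acss1 in cKOm kidney 5, at 437.6 CPM, while the nearest other cKOm kidney was at 390.1 CPM. The gap was 0.713 of the range of the group, above the critical value of 0.625 for 6 samples (Dixon, 95%). Chance gives about 1 such case in 20 groups.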

How the results depend on the processing

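No log2 difference of a member past the threshold changed sign under any setting run. Differences near 0 did: that of Acss3 ran from -0.10 to 0.07 in cKOm minus Ctrlm and from -0.15 to 0.08 in cKOf minus Ctrlf, and that of Acsm2 from -0.04 to 0.09 in cKOf minus Ctrlf. The 4 members past the threshold in cKOm against Ctrlm were past it under every setting run, and Acss1 joined them with limma-voom, with DESeq2, with adjustment within the comparison and without Ctrlm kidney 6. In females the count was 0 under every setting run. Both counts describe genes chosen with these comparisons known. With the replicate number as a block the counts of members were 4, 0 and 6, as without it, and a shared number links kidneys of unlike sex or genotype that are not from 1 mouse. Their deviations had correlations of -0.20 to 0.12 over 24 pairs, and in 3 of the 24 the kidney of the first group correlated best with its own number. They were not treated as paired. Over all genes the block moved the calls from 1456 to 1268 in males, from 137 to 110 in females and from 2707 to 2415 between control sexes.

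The count of list genes past the threshold was 35 in males and 16 without the 5 kidneys highest in hepatocyte transcripts, which leaves fewer samples. It was 29 in males with the hepatocyte score as a covariate. In females it was 10, and 4 with adjustment within the comparison. Leaving out 1 kidney in turn gave 31 to 37 in males and 6 to 11 in females, with 6 without Ctrlf kidney 5. For members leaving out 1 kidney gave 4 to 5, 0 to 0 and 5 to 6. Apart from the leave-outs given above, Acsm5 also missed the threshold between Ctrlm and Ctrlf with the hepatocyte score as a covariate (log2 difference 0.28, edgeR adjusted p = 0.309). The background of all genes called also moved: from 1456 to 888 in males and from 2707 to 1467 between control sexes with that covariate, to 599 and 1570 without the 5 kidneys, and in females from 137 to 83 without them and to 43 with adjustment within the comparison. The 5 kidneys are all male, so the female count without them moved through the shared fit and adjustment. Of 28 levels per kb, 19 moved by more than 1 SD when divided by the longest transcript. Acsm3 in females rests on 20 to 147 reads a kidney, the lowest counts of the members.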
